A study of Homo sapiens with 6 samples.

Results

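The genes described here are 55 human genes of the primary cilium and of intraflagellar transport, measured by RNA sequencing in OVCAR8 cells. OVCAR8 is an established human ovarian carcinoma cell line. The genes were given as a list of symbols and matched among 58037 gene IDs. All 55 were found, CPLANE1 under its older symbol C5orf42, and 54 of them were among the 16740 genes with enough reads to be tested. The list was drawn up because CPLANE1 and TBC1D32 had already appeared among genes that were lower after relaxin-2 in these same libraries. Every relaxin-2 difference below is therefore a description of chosen genes, and none of the counts of such differences is support for a response of the list.

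Both groups were OVCAR8 cells kept for 16 hours in medium without serum. The relaxin-2 group then had 50 ng/mL of recombinant human RLN2, the peptide hormone relaxin-2, for 8 hours, and the untreated group had none. Each group has 3 libraries, numbered 2, 3 and 4 (untreated) and 1, 2 and 3 (relaxin-2) in the labels. The labels call them triplicates without saying whether they were separate cultures, so the p-values measure the spread between these libraries, which may be technical.

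Each library held 11939148 to 22426768 reads assigned to genes, and the 55 genes took 272107 of 113628275 in all, or 0.239%. Levels are given as CPM, the reads of a gene per 1000000 gene reads after TMM scaling, and between genes as CPM per kb of exons. The share of multimapping reads was 5.31% to 6.19% in 5 libraries and 27.0% in relaxin-2 replicate 2. Untreated replicate 2 and relaxin-2 replicate 2 stood apart, with a chi-square per degree of freedom over gene counts of at least 31.8 and 45.3 against any other library, where the other 4 libraries gave 2.65 to 12.9 among themselves. A log2 fold change named below that moved by over 1.5 times or changed sign without either of them is also given without it. The epithelial keratins KRT8 and KRT18 and the Müllerian lineage factor PAX8 were expressed, whereas KRT19 and MUC16 had 4 reads each over the 6 libraries. They come from a list of 10 epithelial ovarian carcinoma markers, of which 8 had enough reads to be tested. That list summed to 1499 to 2567 CPM in untreated and 2365 to 2873 CPM in relaxin-2 libraries. These are bulk samples, so fewer cells of a kind and less RNA per cell cannot be told apart.

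The primary cilium is a single non-motile projection built on the mother centriole, and it serves as an antenna for signals such as Hedgehog ligands. Cargo moves along its axoneme on intraflagellar transport trains, with kinesin-2 carrying IFT-B complexes to the tip and cytoplasmic dynein-2 with IFT-A bringing them back. The transition zone at the base gates entry, and the BBSome moves membrane proteins. Many cultured cells assemble a primary cilium when serum is withdrawn, and both groups here were without serum.

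No member passed the adjusted threshold. In edgeR's quasi-likelihood test with Benjamini-Hochberg adjustment, 0 of 54 members had an adjusted p under 0.05, beside 0% of all tested genes. The smallest adjusted p among them was 0.408. At an unadjusted p under 0.05 edgeR gave 12 members, all lower after relaxin-2, where 4.52% of all tested genes were lower and 6.3% higher at that level, 10.8% in all. DESeq2 and limma-voom also gave 0 members at the adjusted threshold, with 6 and 11 at the unadjusted one, where they gave 10.0% and 12.3% of all tested genes. Nothing is read from these counts, since the list was chosen with this contrast known.

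As fitted, 40 of the 54 members lay below 0 on the log2 scale, which is 74.1% beside 52.2% of all tested genes. Their median log2 fold change was -0.14, against -0.01 over all tested genes, and the median standard error of a member was 0.11. In 14 members the 3 relaxin-2 libraries all lay below the 3 untreated ones, beside 10.5% of all tested genes. These were CPLANE1, TBC1D32, INTU, WDPCP, IFT52, IFT88, WDR19, TTC21B, KIFAP3, DYNC2H1, BBS2, BBS12, TMEM67 and KIAA0586. B9D1 was the 1 member with all relaxin-2 libraries above the untreated ones, beside 10.8% of all tested genes. Together these are 15 members, beside 21.4% of all tested genes. Without untreated replicate 2 the median was -0.07, and 37 of the 54 members moved by over 1.5 times or changed sign, 33 of them towards 0. Without relaxin-2 replicate 2 this was so for 16 members, and without both libraries the median was -0.05. The base composition of the transcripts moved with these differences, as set out after the single genes.

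**Figure D1:**
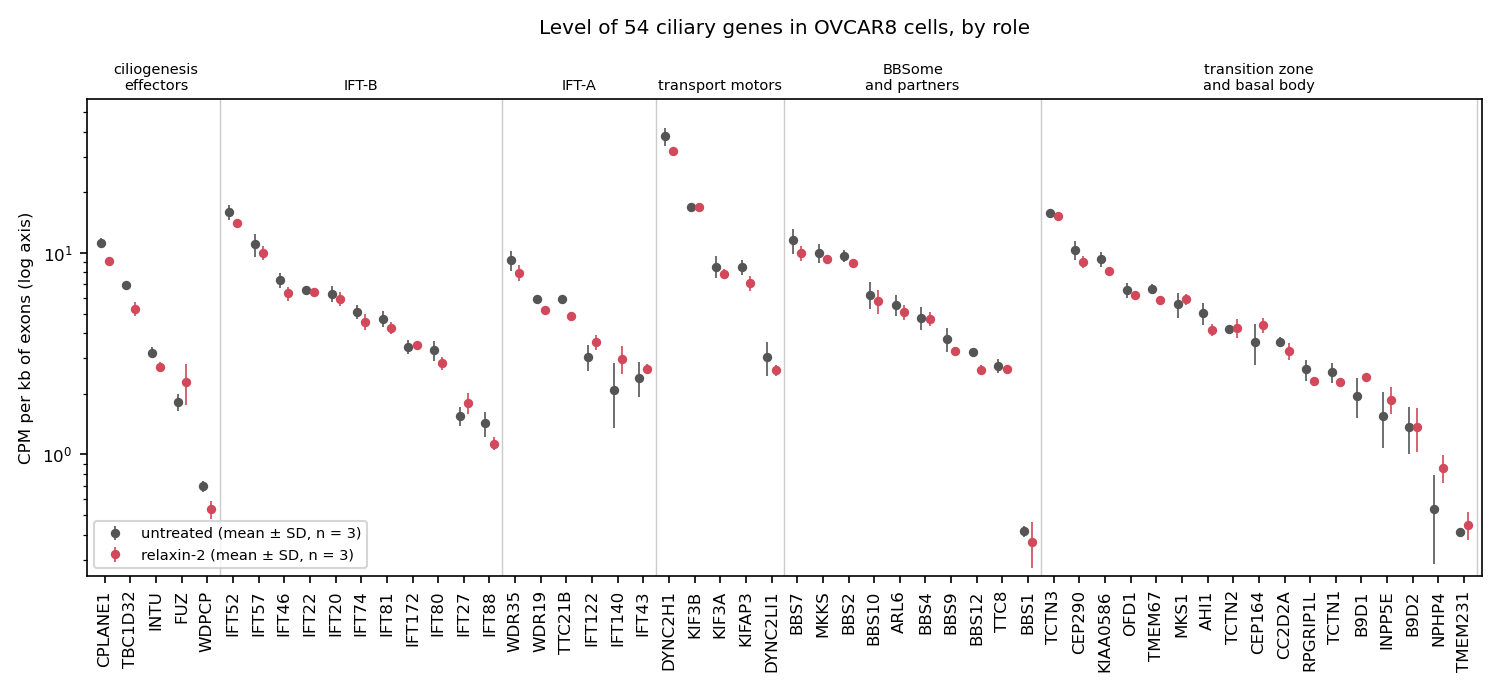
Level of each of the 54 tested members in CPM per kb of exons on a log axis, grouped by role; points are means and bars SD over 3 untreated (grey) and 3 relaxin-2 (red) libraries. DYNC2H1 had the highest level (37.8 untreated) and BBS1 and TMEM231 were among the lowest (0.415 and 0.413 untreated), and for most members both groups sit close together.

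Nearly all members were expressed in these cells. Their median level was 4.65 CPM per kb, where the median of all tested genes was 3.62, and 50 of the 54 were above 1 CPM per kb. DYNC2H1 alone gave 22.2% of all reads of the list. The median coefficient of variation of a member between replicates was 9.96% in untreated and 7.07% in relaxin-2 libraries. It reached 46.7% in untreated (NPHP4) and 25.7% in relaxin-2 libraries (BBS1).

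CPLANE1 and TBC1D32 are ciliogenesis effectors. CPLANE1 belongs to the CPLANE complex, which recruits intraflagellar transport proteins to the basal body, and TBC1D32 is needed for cilium assembly and Hedgehog signalling. CPLANE1 lies on chromosome 5 from 37106228 to 37249428 on the minus strand (hg38, GENCODE 29), with 15146 exonic bases, and TBC1D32 on chromosome 6 from 121079494 to 121334745, also on the minus strand. CPLANE1 had 178, 171 and 159 CPM in untreated replicates 2, 3 and 4, and 141, 135 and 137 CPM in relaxin-2 replicates 1, 2 and 3. The groups did not overlap, and the means were 169 ± 9.26 and 138 ± 2.98 CPM (SD, n = 3). The fitted log2 fold change was -0.30 (SE 0.07), a difference of -18.7%.

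TBC1D32 had 48.9, 49.1 and 46.0 CPM without relaxin-2 and 39.5, 33.7 and 36.1 CPM with it, again without overlap. The means were 48.0 ± 1.76 and 36.5 ± 2.91 CPM (SD, n = 3), and the log2 fold change was -0.40 (SE 0.09), or -24.0%. It was the lowest fold change of the list. CPLANE1 rested on 17708 reads and TBC1D32 on 4894 over the 6 libraries.

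The sequences just upstream of both genes are shown because these genes lead the list and their starts differ in composition. They run 5′ to 3′ on the minus strand and end at the base before the annotated gene (GRCh38.p14, RefSeq promoter table). Capitals mark the full cyclic AMP response element TGACGTCA, the site bound by CREB and related factors. Relaxin receptors are known to couple to cyclic AMP, which is why this motif was searched.
CPLANE1, chr5:37249429-37249626: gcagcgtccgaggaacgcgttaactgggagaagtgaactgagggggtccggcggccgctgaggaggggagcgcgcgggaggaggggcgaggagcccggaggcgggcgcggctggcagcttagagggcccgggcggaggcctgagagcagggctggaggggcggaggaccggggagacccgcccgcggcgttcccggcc
TBC1D32, chr6:121334746-121334979: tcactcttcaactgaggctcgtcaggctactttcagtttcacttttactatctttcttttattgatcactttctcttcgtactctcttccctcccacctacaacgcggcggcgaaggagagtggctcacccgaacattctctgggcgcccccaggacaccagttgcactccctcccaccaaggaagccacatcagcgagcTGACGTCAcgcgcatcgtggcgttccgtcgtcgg
The CPLANE1 window is 76.3% G or C and holds none of the 3 motifs searched. The TBC1D32 window is 55.1% G or C and holds 1 such element near its gene end.

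Promoters of 300 bases, from 250 before to 50 after the start, were in the table for 50 members (GRCh38.p14, RefSeq). IFT22, WDR35, BBS9, TMEM67 and TCTN2 had no entry. Both strands were searched for the cyclic AMP response element TGACGTCA, for the X-box, the paired site of the RFX factors that switch on many ciliary genes, and for the CCAAT box, CCAAT. The X-box was in 6 of 50 members (12.0%), in 1.61% of all 27305 genes with a promoter and in 2.06% of the 11335 tested genes among them. Among 64 other cilium genes with a promoter, described further on, 5 had it (7.81%). TGACGTCA was in 7 of 50 members (14.0%), in 2.25% of all genes, in 3.79% of tested ones and in 2 of the 64 other cilium genes (3.12%). CCAAT was in 23 of 50 members (46.0%), 39.7% of all genes and 43.1% of tested ones and 56.2% of the other cilium genes. A match is a description of the letters and not evidence of binding.

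The 6 X-boxes are shown because they are the ciliary motif of the list; capitals mark the match within 30 bases of the gene's strand, and the match in B9D1 reads on the other strand.
IFT57, chr3:108222406-108222435, minus: gtccggtgGTCGCCTGGTAACcggtcgtgg
IFT122, chr3:129440205-129440234, plus: catgtacGTTGCCAGGGGTAACgcaggtag
TCTN3, chr10:95694121-95694150, minus: cactgacgGTTGCCAGGCAACggaggcacg
TCTN1, chr12:110614121-110614150, plus: ctgtcgcgGTTGCCGGGCAACgcgctgtcc
B9D1, chr17:19378085-19378114, minus: ctgggactGTTACCTTGGCTACtggctccc
B9D2, chr19:41364136-41364165, minus: agcctgctGTTGCCCCAGCAACaaccacgg
The fitted log2 fold changes of these 6 genes ran from -0.17 (TCTN1) to 0.32 (B9D1), on both sides of 0. Those of TCTN1 and B9D1 were -0.08 and 0.15 without untreated replicate 2.

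Of the 7 cyclic AMP response elements, 5 beside that of TBC1D32 are shown to compare the bases around the shared core, which is in capitals.
IFT57, chr3:108222487-108222516, minus: agggccacaggTGACGTCAttcaggaaagc
BBS7, chr4:121870480-121870509, minus: cagcagcgtacTGACGTCAcgcaggacgcc
AHI1, chr6:135497758-135497787, minus: taggcaggcgcTGACGTCAgcaggcggcgc
IFT43, chr14:75985755-75985784, plus: tttccaggaagTGACGTCAggcggccgcgg
IFT27, chr22:36776285-36776314, minus: ataaagctggtTGACGTCAattacaaccac
The remaining one is in IFT20. IFT57 holds both motifs, at separate positions. The 7 genes ran from -0.40 (TBC1D32) to 0.21 (IFT27) on the log2 scale. Only IFT43 (0.14) and IFT27 were above 0. These were at 0.01 and 0.11 without untreated replicate 2, and at -0.01 and 0.05 without both libraries numbered 2.

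The other ciliogenesis effectors are INTU, FUZ and WDPCP, planar cell polarity effectors that act with CPLANE1 at the basal body. INTU had 52.6, 54.0 and 47.7 CPM untreated and 46.1, 41.5 and 43.8 CPM after relaxin-2, without overlap, and a log2 fold change of -0.23 (SE 0.09). WDPCP, the lowest of the 5 per exonic length at 0.693 ± 0.0444 CPM per kb untreated (SD, n = 3), had 7.61, 8.64 and 8.24 against 6.79, 5.58 and 6.45 CPM. Its log2 fold change was -0.37 (SE 0.14). FUZ differed in sign from the other four, with 5.58, 4.78 and 5.77 CPM untreated and 5.23, 8.36 and 6.59 CPM after relaxin-2, groups that overlap. Its log2 fold change was 0.31 (SE 0.19) and 0.14 without relaxin-2 replicate 2, its highest library. Both WDPCP and FUZ overlap a gene on the opposite strand, MDH1 and AP2A1. Of the reads over WDPCP and FUZ, 48.9% and 27.4% lay on the other strand, where the median member had 0.281%. The counts used are of the gene's own strand.

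**Figure D2:**
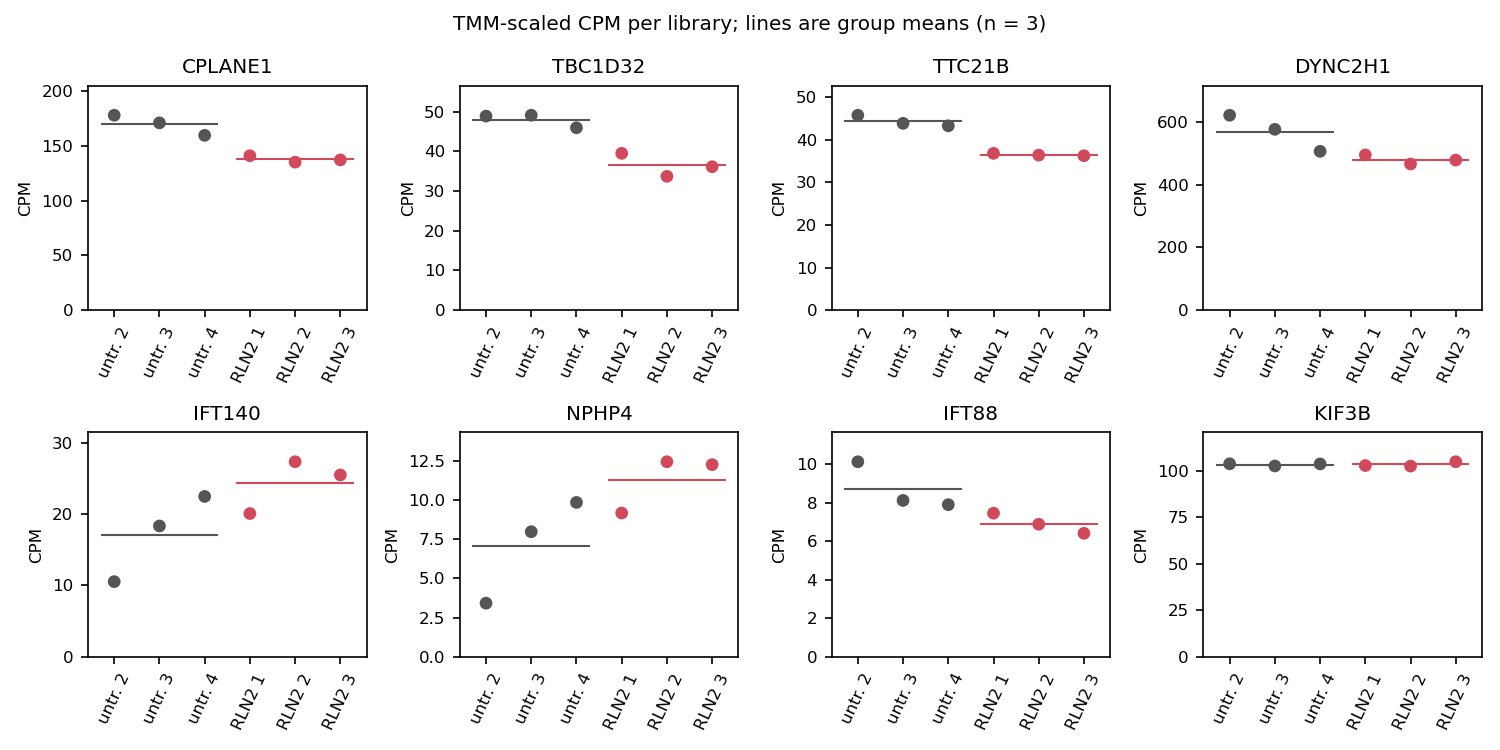
TMM-scaled CPM of 8 members in each library, on axes from 0, with group means (n = 3) as lines; grey points are untreated and red points relaxin-2 libraries. CPLANE1, TBC1D32, TTC21B, DYNC2H1 and IFT88 have groups that do not overlap, IFT140 and NPHP4 have a low untreated replicate 2, and KIF3B lies between 102 and 105 CPM in all 6 libraries.

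IFT-B, the complex that carries cargo outwards, had 11 members, 9 of them below 0 and 2 above, with a median log2 fold change of -0.15. IFT52, a core subunit, was the highest per exonic length at 15.9 ± 1.42 and 14.1 ± 0.443 CPM per kb (SD, n = 3) without and with relaxin-2. Its libraries had 44.3, 39.8 and 37.2 CPM untreated and 37.0, 34.8 and 35.7 CPM after relaxin-2, close to touching. The log2 fold change was -0.17 (SE 0.09), and -0.10 without untreated replicate 2. IFT88, the core subunit mutated in the classic polycystic kidney mouse, had the lowest level and the lowest fold change of the complex. Its libraries had 10.1, 8.12 and 7.90 CPM untreated and 7.46, 6.88 and 6.41 CPM treated, a log2 fold change of -0.34 (SE 0.15) that was -0.22 without untreated replicate 2. IFT27, a small GTPase that helps the BBSome leave the cilium, was the highest of the complex in fold change. It had 10.8, 13.3 and 13.2 CPM untreated and 14.8, 15.9 and 12.5 CPM treated, overlapping groups, with a log2 fold change of 0.21 (SE 0.15). For IFT27 this was 0.05 when both libraries numbered 2 were left out, 0.11 with only the untreated one left out and 0.14 with only the relaxin-2 one left out. The other 8 ran from -0.21 (IFT46 and IFT80) to 0.03 (IFT172). IFT46 was at -0.22, IFT80 at -0.12 and IFT172 at -0.01 without untreated replicate 2, and IFT172 at 0.01 when relaxin-2 replicate 2 was left out. Of the exonic bases of IFT80, 27.2% are shared on the same strand with AC079594.2, and reads there count for neither gene.

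IFT-A, the complex of the return journey, was split, with 3 members below 0 and 3 above and a median of -0.02. TTC21B, a peripheral subunit, had 45.8, 43.9 and 43.3 CPM untreated and 36.8, 36.4 and 36.3 CPM after relaxin-2. Those are means of 44.3 ± 1.30 and 36.5 ± 0.294 CPM (SD, n = 3) without overlap, a log2 fold change of -0.28 (SE 0.08). IFT140, a core subunit, went the other way, with 10.5, 18.3 and 22.5 CPM untreated and 20.1, 27.4 and 25.5 CPM treated. Its groups overlap because untreated replicate 4 was above relaxin-2 replicate 1, and its log2 fold change of 0.51 (SE 0.26) was 0.25 without untreated replicate 2. WDR35, another peripheral subunit, was the highest per exonic length at 9.18 ± 1.00 and 7.97 ± 0.719 CPM per kb (SD, n = 3). Its libraries had 80.6, 69.9 and 65.3 CPM untreated and 68.8, 58.1 and 60.5 CPM treated, with overlap, and a log2 fold change of -0.20 (SE 0.10) that was -0.11 without untreated replicate 2. IFT43, the smallest subunit, had 8.24, 12.1 and 9.69 against 11.3, 11.5 and 10.4 CPM, with overlap, and 0.14 (SE 0.16) on the log2 scale. IFT43 was at 0.01 without untreated replicate 2 and at -0.01 without both libraries numbered 2. WDR19 was at -0.18 and IFT122 at 0.24, the latter at 0.13 without untreated replicate 2.

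Of the 5 transport motor genes 4 lay below 0, with a median of -0.22. DYNC2H1, the heavy chain of dynein-2, was the most abundant member per exonic length, at 37.8 ± 3.86 CPM per kb untreated and 32.0 ± 0.970 CPM per kb treated (SD, n = 3). Its libraries had 621, 576 and 506 CPM untreated and 495, 466 and 478 CPM after relaxin-2, so the lowest untreated and the highest treated library lay next to each other. The log2 fold change was -0.24 (SE 0.09). KIF3B, a motor subunit of kinesin-2 and next in level, had 104, 103 and 104 CPM untreated and 103, 102 and 105 CPM treated, at 16.9 CPM per kb in both groups, and its log2 fold change was 0.00 (SE 0.06), or 0.01 without relaxin-2 replicate 2. The accessory subunit of the same kinesin, KIFAP3, had 46.3, 40.2 and 40.2 CPM untreated and 37.8, 31.8 and 36.0 CPM treated, without overlap, and -0.26 (SE 0.10). DYNC2LI1, the light intermediate chain, had 17.1, 12.8 and 12.2 against 11.9, 13.0 and 11.4 CPM, with overlap, and -0.22 (SE 0.16). Without untreated replicate 2 its log2 fold change was -0.06. KIF3A, the partner motor of KIF3B, was at -0.11, and at -0.01 without that library.

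By level per exonic length over all 6 libraries, DYNC2H1 (34.9 CPM per kb) stood above KIF3B (16.9), TCTN3 (15.5) and IFT52 (15.0). The gap between DYNC2H1 and KIF3B was larger than the spread of either. TCTN3 and IFT52 did not differ beyond their spread in untreated libraries (15.8 ± 0.608 and 15.9 ± 1.42 CPM per kb, SD, n = 3), while TCTN3 was the higher in relaxin-2 libraries (15.3 ± 0.309 and 14.1 ± 0.443 CPM per kb).

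All 10 tested genes of the BBSome and its partners lay below 0, with a median of -0.12 and a range from -0.29 to -0.02. Without untreated replicate 2 the median was -0.05, with 7 below 0 and 3 above. BBS12, one of the chaperonin-like proteins that assemble the BBSome, had 11.1, 11.0 and 11.1 CPM untreated and 9.29, 8.45 and 9.27 CPM after relaxin-2, without overlap, and -0.29 (SE 0.12). BBS7, a core subunit and the highest of the role at 11.5 ± 1.68 and 9.95 ± 0.854 CPM per kb (SD, n = 3), had 64.5, 54.0 and 48.6 against 52.7, 44.9 and 46.5 CPM. Its groups overlap, with -0.21 (SE 0.12), and -0.09 without untreated replicate 2. BBS4, the subunit that links the BBSome to centriolar satellites, was the closest to 0, with 22.6, 19.0 and 17.5 against 21.3, 18.5 and 18.7 CPM and -0.02 (SE 0.13). BBS4 was above 0, at 0.09 and 0.02, without untreated replicate 2 or relaxin-2 replicate 2. BBS1, the subunit that binds the small GTPase ARL6, was the lowest at 0.415 CPM per kb untreated and 0.366 CPM per kb treated. It had 2.61, 2.68 and 2.36 against 1.84, 2.00 and 2.91 CPM, and -0.16 (SE 0.22), or -0.09 without relaxin-2 replicate 2. Of its exonic bases, 53.9% are shared on the same strand with the annotated gene AP002748.4, and reads there count for neither gene, so its level is uncertain.

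BBS5, a BBSome subunit, was the 1 member not tested. It had 0 reads in all 6 libraries on every strand setting, and a count of 0 in 113628275 gene reads allows up to 3 reads, or 0.0264 CPM, for counting error only. Whether the cells lack the transcript or the counting lost its reads was not tested, so the level of BBS5 is uncertain. BBS5 lies on chromosome 2 from 169479178 to 169506655 (hg38), where 21.9% of its exonic bases are shared on the same strand with AC093899.2, which also had 0 reads. Its neighbours FASTKD1 and PPIG had 4335 and 14172 reads, KLHL41 had 0 and LRP2 had 10. Genes with and without reads thus lie side by side here. The other BBSome genes of the list were all tested.

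The transition zone and basal body group, 17 genes, had 10 below 0 and 7 above, with a median of -0.05. AHI1, a transition zone protein mutated in Joubert syndrome, was the lowest in fold change. It had 49.3, 43.4 and 38.5 CPM untreated and 38.8, 34.3 and 35.0 CPM after relaxin-2, groups that overlap only through untreated replicate 4, and -0.28 (SE 0.11), or -0.18 without untreated replicate 2. NPHP4, a nephronophthisis protein, was the highest, with 3.42, 7.99 and 9.86 CPM untreated and 9.18, 12.5 and 12.3 CPM treated. The means of NPHP4 were 7.09 ± 3.31 and 11.3 ± 1.84 CPM (SD, n = 3), and its log2 fold change of 0.68 (SE 0.34) was 0.34 without untreated replicate 2. TCTN3, a tectonic of the transition zone membrane, had the highest level at 15.8 ± 0.608 and 15.3 ± 0.309 CPM per kb (SD, n = 3), and its libraries had 53.2, 49.9 and 49.7 against 48.4, 48.9 and 50.3 CPM. Its log2 fold change was -0.05 (SE 0.07), and -0.02 without untreated replicate 2. TMEM231, a transmembrane protein of the same complex, had the lowest level at 0.413 and 0.447 CPM per kb, with 2.48, 2.50 and 2.48 against 3.12, 2.27 and 2.68 CPM and 0.13 (SE 0.17), or 0.22 without relaxin-2 replicate 2. Of its exonic bases, 9.68% are shared on the same strand with AC025287.1, and reads there count for neither gene.

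B9D1, a B9-domain protein of the transition zone, was chosen for mention after its values were seen. It had 5.31, 7.85 and 8.24 CPM untreated and 8.96, 8.89 and 8.91 CPM treated, without overlap, and 0.32 (SE 0.18). It was 0.15 when untreated replicate 2 was left out. The other 12 genes of the group ran from -0.20 (KIAA0586) to 0.28 (CEP164), or -0.13 and 0.10 for these without untreated replicate 2.

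**Figure D3:**
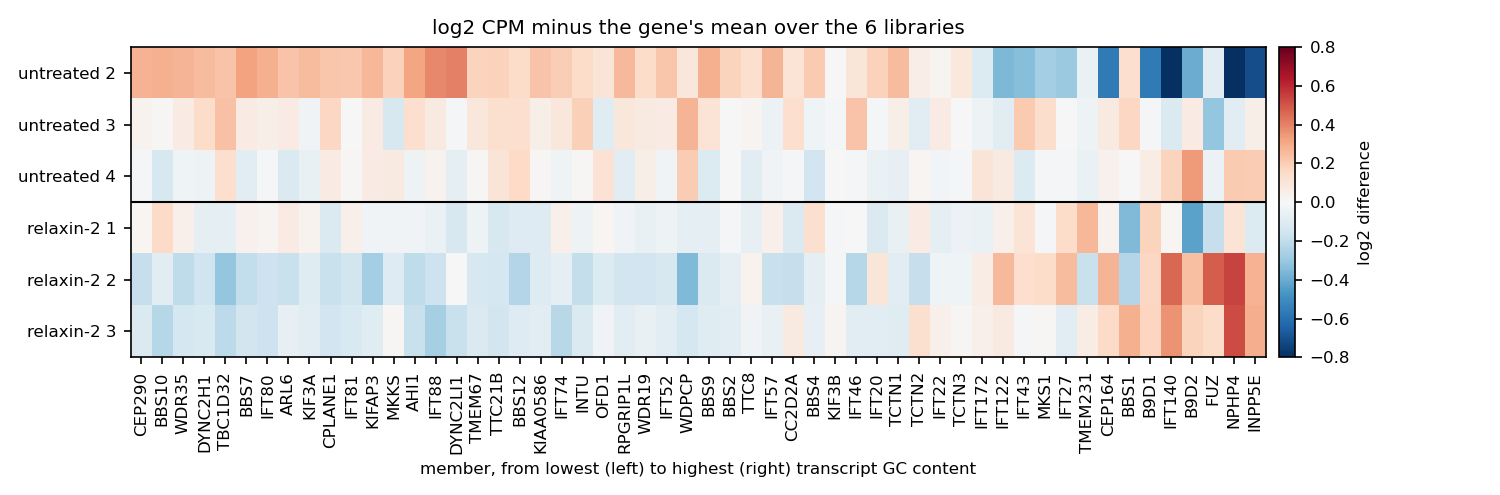
log2 CPM of each tested member minus that gene's mean over the 6 libraries (colour, red above and blue below the mean), with members ordered from low to high transcript GC content. Untreated replicate 2 is red at the left and blue at the right, relaxin-2 replicates 2 and 3 show the opposite, and the other 3 libraries are paler.

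The sign of a member's difference moved with the GC content of its transcripts. Of 14 members under 40% GC, all 14 lay below 0, with a median of -0.21, where the 1664 tested genes of that class had -0.18 and 89.6% of them lay below 0. Of 26 members from 40% to 50% GC, 24 lay below 0 (92.3%), with a median of -0.17, where the 7517 genes of the class had -0.11 and 78.8%. Of 14 members at 50% GC or more, 2 lay below 0, with a median of 0.23, where the 7492 genes of the class had 0.25 and 17.0%. In each class the median of the members had the sign of the median of the tested genes of like composition. The median GC content of the members was 43.6%, and that of all tested genes was 48.7%.

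Across the 54 members the log2 fold change had Pearson's r of 0.82 and Spearman's rho of 0.76 with transcript GC content. Across the 16673 tested genes with a GC value r was 0.71 and rho 0.73. These points share the same 6 libraries, and genes are not independent replicates. With exonic length the members had r of -0.05 and rho of -0.21. CPLANE1 (38.9% GC), TBC1D32 (38.4%) and WDPCP (43.2%) lay below the median of genes of like composition. The members above 0.3 in fold change on the log2 scale were B9D1, FUZ, IFT140 and NPHP4, with 57.4% to 60.0% GC. B9D2 and INPP5E, at 59.9% and 62.7% GC, were at -0.01 and 0.27. B9D2 was at -0.19 without untreated replicate 2 and at -0.10 without relaxin-2 replicate 2.

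**Figure D4:**
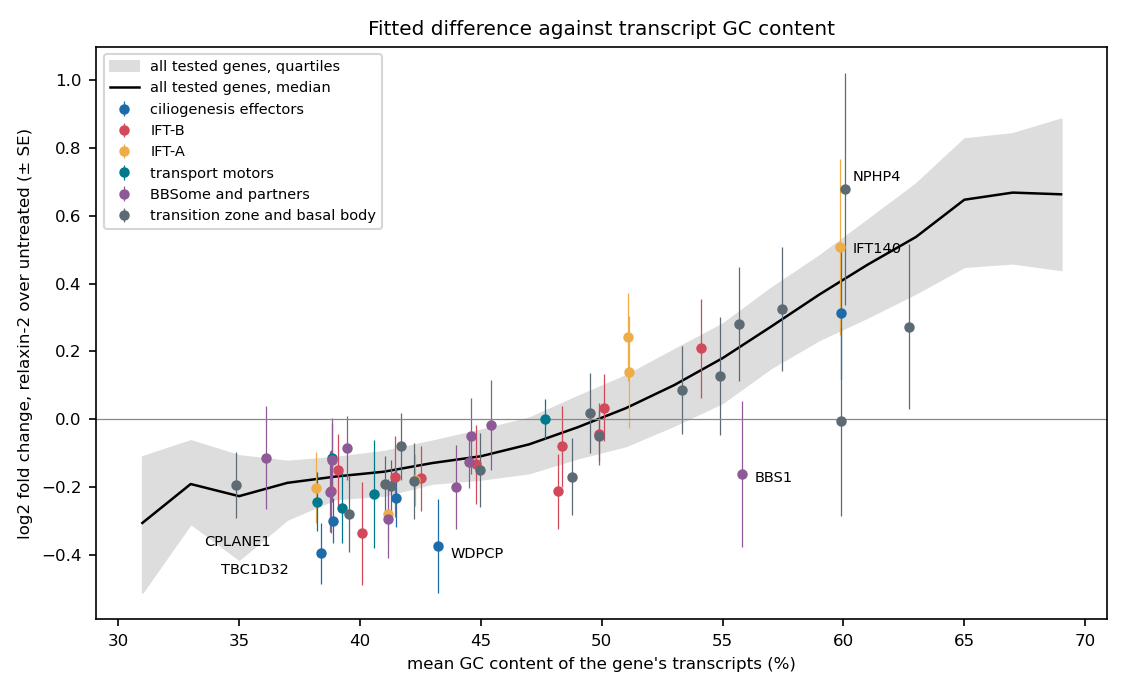
Fitted log2 fold change of each tested member (± SE) against the mean GC content of its transcripts in percent, coloured by role; the black line and grey band are the median and quartiles of all tested genes. Members follow the line, with a median of -0.21 under 40% GC and 0.23 at 50% GC or more. CPLANE1, TBC1D32, WDPCP and BBS1 are among several members below the band, and NPHP4 and IFT122 are among those above it.

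The same pattern was present library by library. Members under 40% GC had a median deviation from their mean over the 6 libraries of 0.26 in untreated replicate 2 and 0.06 and -0.03 in untreated replicates 3 and 4. They had 0.02, -0.18 and -0.13 in relaxin-2 replicates 1, 2 and 3 (log2). All tested genes of that class had 0.24 in untreated replicate 2 and -0.14 in relaxin-2 replicate 2. Members at 50% GC or more had -0.35 in untreated replicate 2 and 0.25 and 0.15 in relaxin-2 replicates 2 and 3, close to mirror images. Untreated replicate 4 and relaxin-2 replicate 1, from opposite groups, were between -0.03 and 0.05 in both classes.

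In a fit in which the trend of every library on transcript GC content and length was taken out through offsets, the members' median log2 fold change was -0.03 and that of all tested genes 0.01. Of 54 members 35 lay below 0, and 13 had the other sign than before, 9 from below to above and 4 the reverse. The medians by role were then -0.14 for the ciliogenesis effectors, -0.03 for IFT-B, 0.04 for IFT-A, -0.06 for the motors, 0.03 for the BBSome and partners and -0.04 for the transition zone and basal body. In 6 members the relaxin-2 libraries lay below all untreated ones, beside 6.69% of all tested genes: CPLANE1, TBC1D32, IFT88, DYNC2H1, B9D2 and INPP5E. CPLANE1, TBC1D32, IFT88 and DYNC2H1 were also among the 14 before the offsets. The offsets were fitted to each library without regard to group. A relaxin-2 difference that follows GC content or length would therefore be taken out with them.

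With the offsets CPLANE1 was at -0.14, TBC1D32 at -0.22, WDPCP at -0.24 and IFT88 at -0.17, each with the same sign as before and closer to 0. NPHP4 was at 0.31 and IFT140 at 0.14. FUZ turned from 0.31 to -0.12 and INPP5E, a ciliary inositol phosphatase, from 0.27 to -0.24. INPP5E was at 0.04 without untreated replicate 2 and with no offsets. The 5 ciliogenesis effectors were then all below 0, from -0.24 to -0.09. BBS1 and B9D2, both of low level, were the lowest at -0.38 each.

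**Figure D5:**
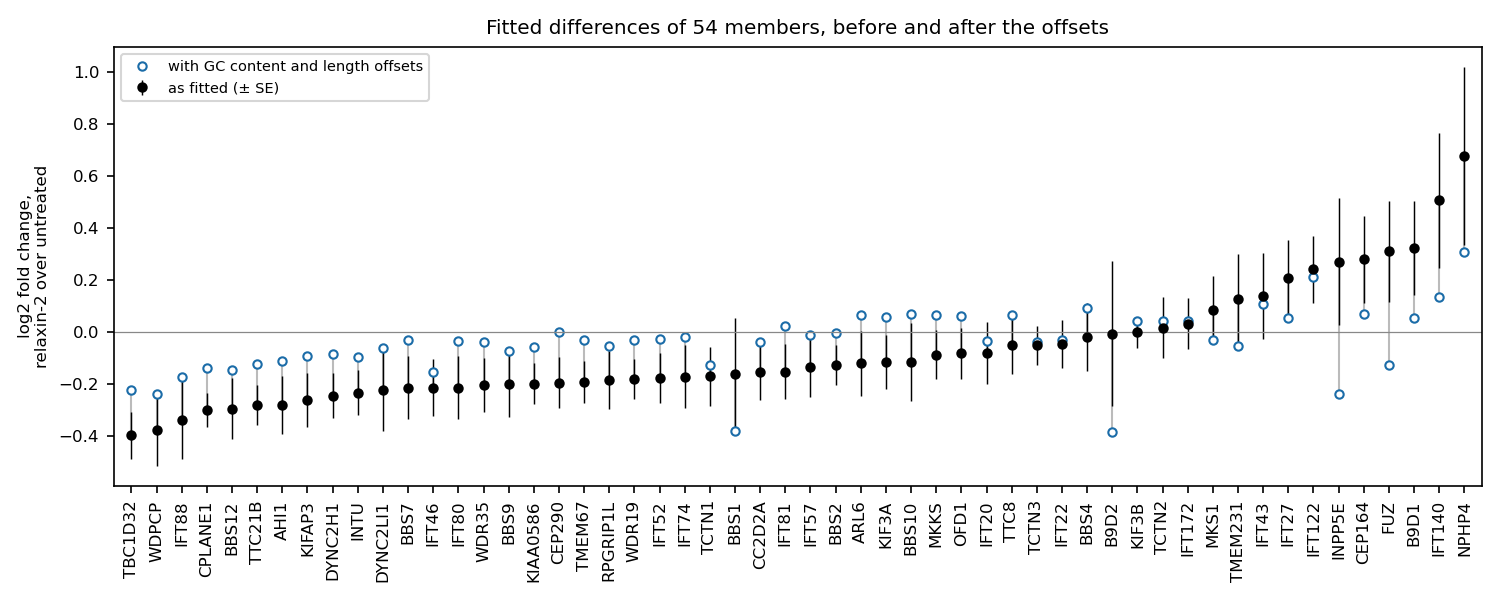
Log2 fold change of each of the 54 tested members as fitted (black, ± SE) and with GC content and length offsets (open blue circles), ordered by the fitted value. The circles lie closer to 0 for most members, TBC1D32 goes from -0.40 to -0.22 and NPHP4 from 0.68 to 0.31, and BBS1, B9D2, FUZ and INPP5E move downwards.

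Other genes of the cilium, taken from 4 lists of textbook membership, were read beside the 55. Of 82 such genes 80 were tested and 0 passed the adjusted threshold in edgeR, beside 0% of all tested genes. At an unadjusted p under 0.05 edgeR gave 5 (2 lower, 3 higher), beside 10.8% of all tested genes (4.52% lower, 6.3% higher). Of the 80, 40 lay below 0 and 40 above, where 52.2% of all tested genes lay below 0, and their median was 0.00. The 20 further transport and BBSome genes had 12 below and 8 above (median -0.08). CPLANE2, the small GTPase of the CPLANE complex, was highest there at 0.998 ± 0.399 and 1.67 ± 0.165 CPM (SD, n = 3), a log2 fold change of 0.74 (SE 0.32) that was 0.31 with the offsets and 0.42 without untreated replicate 2. LZTFL1, which restrains BBSome entry, was lowest at -0.24 (SE 0.10), and at -0.16 without that library.

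The 24 further transition zone and basal body genes had 15 below and 9 above (median -0.07), from -0.36 (SE 0.14) for RPGR, a GTPase regulator of the transition zone, to 0.36 (SE 0.24) for the kinase NEK8, the latter 0.12 without untreated replicate 2. The 20 regulators of cilium assembly and disassembly had 11 below and 9 above (median -0.02), from -0.17 (SE 0.10) for RFX7 to 0.58 (SE 0.46) for RFX1. Both are RFX factors, and RFX1 was at 0.00 with the offsets, 0.19 without untreated replicate 2 and 0.29 without relaxin-2 replicate 2.

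Hedgehog pathway genes, whose signalling runs through the cilium, were mostly above 0. Of 18 listed, 16 were tested, and 2 lay below 0 and 14 above, with a median of 0.25. Without untreated replicate 2, 15 were tested, with 6 below 0 and 9 above and a median of 0.01. Their transcripts had a median GC content of 57.3%, and with the offsets the median was -0.02, with 8 below 0. KIF7, the ciliary tip kinesin that regulates GLI factors, was highest at 0.56 (SE 0.31), 0.16 with the offsets and 0.24 without untreated replicate 2. GAS1, a co-receptor of Hedgehog ligands, was lowest at -0.24 (SE 0.18), -0.57 with the offsets and -0.14 without untreated replicate 2. The ligands IHH and DHH had 2 and 6 reads in all 6 libraries.

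Markers of motile ciliated cells, which share much of this machinery, were read as a check on the kind of cilium. Of 16 such markers 6 had enough reads to be tested. DNAH9, DNAI2, PIFO, SNTN and SPAG6 had 0 reads, and FOXJ1, the master regulator of motile cilia, had 2. The summed level of the markers was 26.9 to 31.5 CPM in untreated and 23.8 to 24.5 CPM in relaxin-2 libraries, most of it from DNAH5 (16.3 and 13.1 CPM). The sum was thus lower in the relaxin-2 libraries, and its part in the members' values was not tested. Fibroblast markers summed to 10.9 to 19.3 and 18.3 to 19.0 CPM with DCN and FAP at 0 reads, endothelial markers to 1.80 to 2.42 and 2.18 to 3.14 CPM, and none of 6 leukocyte markers had enough reads to be tested.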

How the data were processed

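The authors deposited raw counts of reads per gene for each library, in unstranded, forward and reverse columns. The submitters' processing notes name STAR and hg38, without a version or an annotation release. Per the labels' protocols the kit was stranded, and the reverse column, with 17.8 to 19.8 times the forward gene reads, was used. Such counts hold neither multimapping reads nor reads in same-strand overlaps of genes. A merged deposited table of 24635 IDs held the same counts.

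Lines that name no gene were left out. Genes passing filterByExpr were fitted with edgeR 4.0.16 (quasi-likelihood F test, TMM, R 4.3.3, all 6 libraries, treatment only), with Benjamini-Hochberg adjustment over 16740 genes. DESeq2 1.42.0 and limma 3.58.1 (voom) were alternatives, among 18 settings. Standard errors come from the fitted coefficient and its F statistic. GC content, length and strand overlaps come from GENCODE 29, which held 57433 of 58037 IDs, and the offsets are splines with 4 degrees of freedom. Promoters are from the RefSeq table of GRCh38.p14. The code was tested on simulated counts. Summaries used Python 3.11.15.

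The members and lists were chosen with earlier results of these data known. CPLANE1 and TBC1D32 were named always, with the extremes of level and of fold change in each of 6 roles, the untested member, and the extremes of fold change in each other list.

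No 2 libraries agreed within sampling noise: the smallest chi-square per degree of freedom between any pair was 2.65, for untreated replicate 4 with relaxin-2 replicate 1.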

Additional observations from a re-analysis of the deposited data

How the results depend on the processing

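In all 18 alternatives 0 members and 0 of the other cilium genes passed the adjusted threshold, and the smallest adjusted p of a member (edgeR, Benjamini-Hochberg) was 0.0978, without a filter on low counts. The members' median log2 fold change stayed below 0 in each. It was -0.031 with GC content and length offsets, -0.054 without both libraries numbered 2, and from -0.20 (without untreated replicate 4) to -0.07 (without untreated replicate 2) when 1 library was left out. The count of members whose groups did not overlap was 15 (21.4% of all tested genes), and 6 with the offsets (16.3% of all). With 1 library left out, where groups separate more easily, it ran from 15 to 32, with 32 without relaxin-2 replicate 1 (46.8% of all) and 29 without untreated replicate 4 (43.6% of all). Members at an unadjusted p under 0.05 numbered 3 without relaxin-2 replicate 2 or 3 (2.83% and 3.64% of all tested genes), 4 with the offsets (10.5% of all) and 18 without untreated replicate 4 (20.8% of all). CPLANE1 and TBC1D32 kept their sign in all 18. Of 54 members, 13 changed sign with the offsets, 10 without both libraries numbered 2, 5 without untreated replicate 2 and 14 with the block and offsets; in the other alternatives 0 to 3 did. Without a filter on low counts 120 of all tested genes passed the threshold.

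The replicate numbers 2 and 3 occur in both groups, but nothing in the labels ties equal numbers to a shared batch. The libraries numbered 2 deviated in opposite directions across 13074 genes (r = -0.53) and those numbered 3 in the same one (r = 0.28), and the numbers were not taken to pair the libraries. With the replicate block the median was -0.22. Untreated replicate 4 and relaxin-2 replicate 1 have numbers found in a single group, so they carry no weight in the blocked contrast. It rests on the libraries numbered 2 and 3, which include both that stood apart. The block with GC content and length offsets gave -0.040 for the median and 448 calls among all tested genes, none of them a member. The count of members whose groups did not overlap does not use the block. It was therefore 6 (16.3% of all tested genes), as with the offsets alone. Depth limits the members of low level: those under 1 CPM per kb were WDPCP, BBS1, NPHP4 and TMEM231.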

Other observations

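Among all members, 8 had more than 10% of their reads on the strand opposite to the gene: WDPCP (48.9%, opposite MDH1), IFT20 (29.1%, opposite TMEM97), FUZ (27.4%, opposite AP2A1), BBS2 (24.5%, opposite OGFOD1), CC2D2A (14.4%), BBS1 (11.9%), B9D2 (11.8%) and IFT80 (11.7%). Over all gene reads that share was 5.17%. For WDPCP it lay between 46.2% and 52.0% in every library. These reads are not in the counts of the gene's own strand, and with unstranded counts the members' median log2 fold change was -0.12.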
